A study of Mus musculus with 3 samples.

Results

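The nuclear factor of activated T cells (NFAT) family was followed in RNA of follicular regulatory T cells (TFR cells). Members were chosen by gene name, *Nfatc1*, *Nfatc2*, *Nfatc3* and *Nfat5*, which are 4 of the 25759 genes listed and 4 of the 22044 genes with an annotated exon length. The data are 3 RNA-seq libraries, 1 for each genotype, so no spread between mice can be given and no test was made. All mice carried Cre recombinase from the *Foxp3* locus (Foxp3-IRES-Cre, FIC) and 1 *Prdm1* allele with a gfp reporter, on a C57BL/6J background. They were immunized with 125 µg NP-KLH in alum and boosted on day 7, and on day 10 B220-CD4+CXCR5+GITRhi cells positive for the Blimp-1-GFP reporter were sorted from spleen and mLN. The library labelled N came from Nfatc1fl/fl.Prdm1gfp/+.FIC mice and carries the label NFATc1-deficient. The library labelled αA came from Nfatc1caaA.Prdm1gfp/+.FIC mice, which express a constitutively active NFATc1/αA after Cre. The library labelled PαA came from Nfatc1caaA.Prdm1gfp/fl.FIC mice, in which Cre acts on the second *Prdm1* allele as well. Every comparison is therefore between mice that already lack 1 intact *Prdm1* allele, and no library from mice with unaltered *Nfatc1* was analysed here. The sex, age and number of mice behind each library are not given in the sources used here. The libraries held 29726219, 27239921 and 25465829 reads for N, αA and PαA.

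NFATc1, NFATc2 and NFATc3 are held in the cytoplasm by phosphorylation. The calcium-dependent phosphatase calcineurin removes these phosphates, after which the proteins enter the nucleus and bind DNA, often beside AP-1, BATF and IRF4 or Foxp3. *Nfatc1* has an inducible promoter that yields the short isoform NFATc1/αA and a downstream promoter that yields longer isoforms. NFAT5 shares the DNA-binding fold but lacks calcineurin control and is known for the response to hypertonic stress. These steps act on the proteins, while the libraries measure poly(A) RNA only.

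Of the 4 genes, *Nfatc1* had the highest RNA level per exon length in every library and *Nfat5* the lowest. *Nfatc1* reached 63.6 RPKM (exon reads divided by exon length and library total) in N, 62.9 in αA and 32.4 in PαA. *Nfatc3* stood at 43.1, 38.2 and 30.6 RPKM in the same order, and *Nfatc2* at 13.7, 11.8 and 8.64 RPKM. *Nfat5* was at 3.48 RPKM in N, 1.60 in αA and 1.49 in PαA. The order of the genes, *Nfatc1*, *Nfatc3*, *Nfatc2*, *Nfat5*, was the same in all 3 libraries, and the 95% counting intervals of neighbours did not overlap in any. They came closest in PαA, where the interval of *Nfatc1* began at 31.55 RPKM and that of *Nfatc3* ended at 31.49. Intervals here and below are exact for independent reads and cover counting error only. Reads copied by PCR are not separate molecules, so the intervals can be too narrow even for that. The plot of RPKM by library shows the levels.

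**Figure D1:**
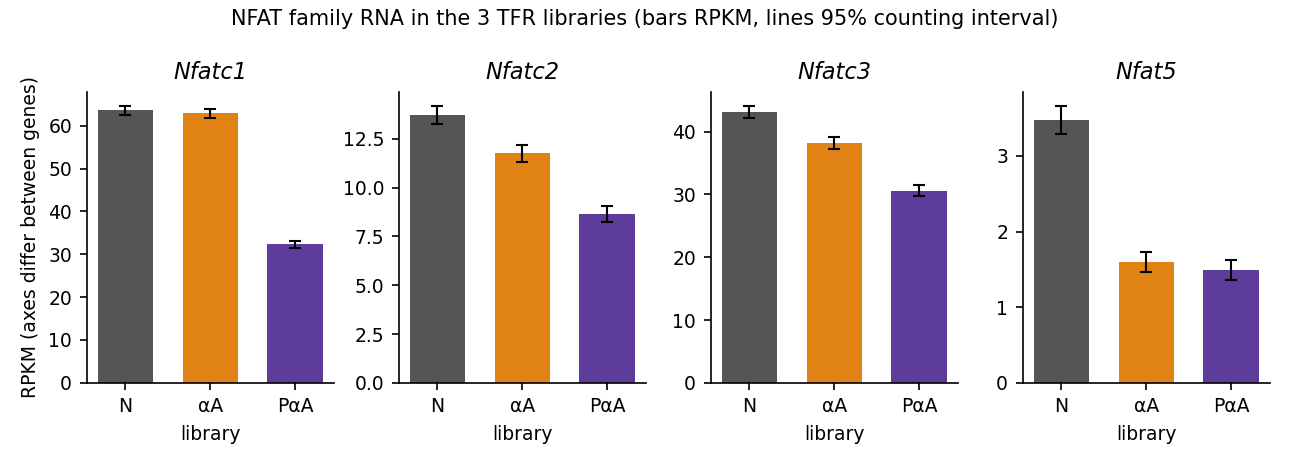
RNA level of *Nfatc1*, *Nfatc2*, *Nfatc3* and *Nfat5* in RPKM (vertical axes, which differ between genes and start at 0) in the libraries labelled N, αA and PαA, 1 library each. Black lines are 95% Poisson intervals of the exon reads. *Nfatc1* was similar in N and αA (63.6 and 62.9 RPKM) and lower in PαA (32.4), whereas *Nfat5* was lower in both αA and PαA (1.60 and 1.49) than in N (3.48).

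*Nfatc1* (ENSMUSG00000033016, GRCm38 chromosome 18, 80606205 to 80713071, minus strand, 13 exons) is the gene that the genotypes target. On the RPKM scale the total RNA did not separate N from αA, with a log2 ratio of αA to N of -0.02 (95% counting interval -0.05 to 0.02). With TMM factors, which centre the bulk of genes, the ratio was 0.15, and after centring on genes of like exon length 0.35, so that αA stood above N. Deposited counts are summed over the gene, so reads of the floxed exons, of the transgene and of single isoforms were not separated. The level of 63.6 RPKM in N therefore does not check its label as NFATc1-deficient, which rests on the loss of floxed sequence, and whether αA exceeded N depended on the scale. The library names are used as labels only. N held 1492 reads across exon-exon junctions, αA 1525 and PαA 805, and the intron reads were 500, 310 and 213. Thus the readouts moved apart between N and αA: junction reads had a log2 ratio of 0.16 (0.05 to 0.26) and intron reads of -0.56 (-0.77 to -0.36), scaled by the library totals. In PαA, *Nfatc1* was lower than in αA by all 3 readouts, with log2 ratios of -0.96 (-1.004 to -0.92) for exon, -0.82 (-0.95 to -0.70) for junction and -0.44 (-0.70 to -0.19) for intron reads. Against N the exon ratio of PαA was -0.98 (-1.02 to -0.93) and the intron ratio -1.01 (-1.25 to -0.77). An antisense transcript, AC123818.1, overlaps the gene and is not counted separately here, and the counting is not stated to use strand. *Prdm1*, which encodes Blimp-1 and is the other targeted gene, was at 25.6 RPKM in N, 24.9 in αA and 10.0 in PαA, so its lowest level fell in the library labelled Blimp-1-deficient.

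*Nfatc2* (ENSMUSG00000027544, GRCm38 chromosome 2, 168476410 to 168601657, minus strand, 18 exons) encodes the NFAT protein that resting T cells already hold in the cytoplasm. N held 3413 of its exon reads, αA 2679 and PαA 1840. The highest count stood in N and the lowest in PαA. The log2 ratio was -0.22 (-0.30 to -0.15) for αA against N, -0.44 (-0.53 to -0.36) for PαA against αA and -0.67 (-0.75 to -0.59) for PαA against N. Its intron reads did not follow, with 212, 210 and 179 reads and log2 ratios of 0.11 (-0.17 to 0.39), -0.13 (-0.43 to 0.16) and -0.02 (-0.32 to 0.27) in the same comparisons. All 3 of these intervals include 0. Junction reads were 294, 200 and 181, lower in αA than in N at -0.43 (-0.70 to -0.17) and not distinguishable between PαA and αA at -0.05 (-0.35 to 0.25).

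*Nfatc3* (ENSMUSG00000031902, GRCm38 chromosome 8, 106058840 to 106130537, plus strand, 14 exons) encodes another calcineurin-regulated NFAT protein of T cells. Its exon reads numbered 7908, 6419 and 4808 for N, αA and PαA, of which 97.7% or more mapped uniquely. The log2 ratios were -0.17 (-0.22 to -0.13) for αA against N, -0.32 (-0.37 to -0.27) for PαA against αA and -0.49 (-0.55 to -0.44) for PαA against N. Intron reads of the gene went the other way, with 201 for N, 309 for αA and 440 for PαA. Their log2 ratios were 0.75 (0.49 to 1.01), 0.61 (0.39 to 0.82) and 1.35 (1.11 to 1.60). Junction reads, which need spliced RNA, were lower along with the exon reads and by more, at 689, 464 and 320, with a log2 ratio of -0.88 (-1.08 to -0.69) for PαA against N. *Nfatc3* overlaps *Esrp2* on the opposite strand, which had 0, 0 and 19 exon reads, and the small RNA gene *Gm27956* lies within it and was not analysed here.

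*Nfat5* (ENSMUSG00000003847, GRCm38 chromosome 8, 107293470 to 107379517, plus strand, 30 exons) encodes the tonicity-regulated member. N held 1389 of its exon reads, αA 585 and PαA 509. N stood above the other two libraries, which differed by less than counting error. The log2 ratio was -1.12 (-1.26 to -0.98) for αA against N, -0.10 (-0.28 to 0.07) for PαA against αA and -1.23 (-1.37 to -1.08) for PαA against N. Intron reads numbered 193, 171 and 133, and their ratios of -0.05 (-0.35 to 0.26), -0.27 (-0.60 to 0.07) and -0.31 (-0.64 to 0.01) all had intervals that include 0. Junction reads were few, 75, 26 and 29. The level of *Nfat5* was below 5 RPKM in all libraries, which is under the expression filter applied below, and its exon length of 13445 bases is the longest of the 4.

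*Nfatc4* (ENSMUSG00000023411), the remaining calcineurin-regulated family gene, was barely seen. N held 0 exon reads, αA 44 and PαA 30, corresponding to 0, 0.384 and 0.280 RPKM. The lower 95% counting limits of the log2 ratio to N were 3.64 for αA and 3.16 for PαA. None of these reads crossed a junction or lay in an intron, so the counts rest on reads within exons alone.

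The share of intron reads within a gene does not depend on how the library is scaled. Of all reads of *Nfatc3*, introns took 2.48% in N (95% exact Clopper-Pearson interval 2.15 to 2.84), 4.59% in αA (4.10 to 5.12) and 8.38% in PαA (7.65 to 9.17). For *Nfatc1* the share was 3.44% (3.15 to 3.74), 2.38% (2.12 to 2.65) and 3.36% (2.93 to 3.83), lowest in αA. So the intron shares of these 2 genes moved in opposite directions from N to αA. *Nfatc2* had 5.85%, 7.27% and 8.87% and *Nfat5* 12.2%, 22.6% and 20.7%. Over all genes, the intron share of gene reads was 3.01% for N, 4.56% for αA and 3.29% for PαA, the highest in αA, where *Nfatc1* was at its lowest. Among 795 genes that reached more than 5 RPKM in a library and 100 or more intron reads in each of them, the log2 change of the intron to exon ratio from N to αA had a median of 0.41. *Nfatc1* changed by -0.55 (-0.76 to -0.34), at percentile 3.77 of these genes. *Nfatc3* changed by 0.92 (0.66 to 1.19) from N to αA, at percentile 83.0, and by 1.85 (1.60 to 2.10) from N to PαA, the latter at percentile 98.0 against a median of 0.52. The comparison of αA with N and that of PαA with N share the N library. *Nfat5* is below 5 RPKM and not one of the 795. The source of the intron reads was not tested.

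**Figure D2:**
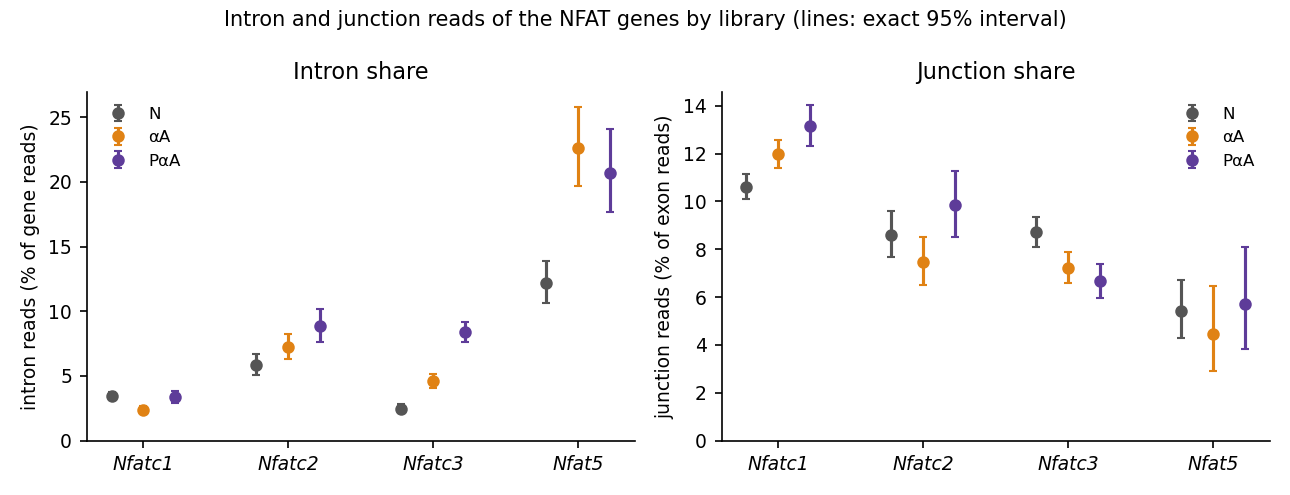
Intron reads as a percentage of all reads of the gene (left) and junction reads as a percentage of exon reads (right) for the 4 NFAT genes in the libraries N, αA and PαA. Points are single libraries and lines exact 95% intervals of the share. The intron share of *Nfatc3* went from 2.48% in N to 8.38% in PαA, while that of *Nfatc1* was lowest in αA (2.38%).

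The junction share, a further measure that needs no scaling, was below that of the whole libraries for all 4 genes. The whole libraries had 26.0% in N, 26.2% in αA and 27.5% in PαA, so that share was highest in PαA. For *Nfatc1* it was 10.6% in N, 11.97% in αA and 13.1% in PαA, with intervals of 10.1 to 11.1, 11.4 to 12.5 and 12.3 to 14.02. For *Nfatc3* it was 8.71%, 7.23% and 6.66%, so it was highest in N. The junction share was thus higher in PαA than in N for *Nfatc1* and lower for *Nfatc3*, and the intervals of N and PαA did not overlap in either gene. For *Nfatc2* (8.61%, 7.47% and 9.84%) and *Nfat5* (5.40%, 4.44% and 5.70%) neighbouring intervals overlapped between N and αA.

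Within a library, the ratio of 2 members is also free of the library total. *Nfatc1* made up 51.3% of the summed RPKM of the 4 genes in N, 55.0% in αA and 44.3% in PαA. *Nfatc3* made up 34.8%, 33.4% and 41.9%, *Nfatc2* 11.1%, 10.3% and 11.8%, and *Nfat5* 2.80%, 1.40% and 2.03%. *Nfatc1* was thus the main family transcript throughout, and its lead over *Nfatc3* narrowed from 1.65 in αA to 1.06 in PαA, compared with 1.47 in N. Relative to *Nfatc3*, *Nfatc1* changed by 0.16 on the log2 scale (0.10 to 0.22) from N to αA and by -0.64 (-0.71 to -0.57) from αA to PαA. Relative to *Nfatc2* the changes were 0.21 (0.13 to 0.29) and -0.51 (-0.61 to -0.42). *Nfatc2* and *Nfatc3* kept closer together, with a change of their ratio of -0.05 (-0.14 to 0.04) and -0.13 (-0.23 to -0.02). *Nfat5* changed relative to *Nfatc3* by -0.95 (-1.10 to -0.80) from N to αA and by 0.22 (0.03 to 0.40) from αA to PαA. Such ratios of 2 members still carry the trend with exon length given below. For αA against N that trend was -0.58 at the length of *Nfat5* and -0.31 at that of *Nfatc3*. The summed RPKM of the family was 123.9 in N, 114.5 in αA and 73.1 in PαA, and with TMM factors 113.3, 117.0 and 78.3, which turns the order of N and αA.

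By the expression filter of the study, read here as RPKM, 3 of the 4 genes passed with an RPKM above 5, and *Nfat5* did not. None of these 3 differed by more than 2-fold in any comparison by RPKM. By TPM, *Nfatc1* was past 2-fold lower in PαA, at -1.12 against αA and -1.17 against N. By TPM 5.46% and 14.5% of the genes that passed differed by more than 2-fold either way in these comparisons. Over the 7017 genes that passed, 4.25% differed by more than 2-fold in RPKM between αA and N, 4.63% between PαA and αA and 10.3% between PαA and N. At a lower threshold, added so that *Nfat5* is counted, all 4 genes were above 1 RPKM. More than 1.5-fold lower were 1 of 4 in αA against N (*Nfat5*; 17.3% of 10262 genes), 1 of 4 in PαA against αA (*Nfatc1*; 14.1%) and 3 of 4 in PαA against N (*Nfatc1*, *Nfatc2* and *Nfat5*; 28.3%). After centring on genes of like exon length, these 3 ratios against N were -0.35, 0.02 and -0.27 and that of *Nfat5* in αA against N was -0.54, all short of 1.5-fold. Among the 10262 genes the ratio of *Nfat5* in αA against N lay at percentile 5.28 and that of *Nfatc1* in PαA against αA at percentile 6.02. *Nfatc2* and *Nfatc3* lay between percentiles 20.2 and 49.0 in every comparison. These comparisons share libraries pairwise, and their values are therefore given side by side only.

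The ratios of long transcripts were lower in general, and all 4 NFAT genes are long, with exon lengths of 7433 (*Nfatc1*), 8367 (*Nfatc2*), 6167 (*Nfatc3*) and 13445 bases (*Nfat5*). Among genes above 1 RPKM, the median log2 ratio of PαA to N was 0.16 for the 1473 genes under 1500 bases and -0.65 for the 1462 genes of 6000 to 15000 bases. For αA against N the same medians were -0.03 and -0.38, and for PαA against αA 0.17 and -0.25. When ratios were centred on genes of like exon length, *Nfatc2* and *Nfatc3* were no longer lower in αA than in N (0.18 and 0.13) or in PαA than in N (0.02 and 0.04). *Nfatc1* remained lower in PαA than in αA at -0.71, and became higher in αA than in N at 0.35. *Nfat5* remained lower in αA than in N at -0.54, and its ratio for PαA against αA turned to 0.23. With TMM factors *Nfatc1* had 0.15, -0.89 and -0.75 for αA against N, PαA against αA and PαA against N, and *Nfat5* had -0.96, -0.04 and -0.996. *Nfatc2* and *Nfatc3* then differed from N in αA by -0.06 and -0.01. Lower *Nfatc1* in PαA than in αA, and lower *Nfat5* in αA than in N, thus kept their direction on the RPKM, TMM and length-centred scales, with the smallest sizes at -0.71 and -0.54. The part of the length trend in the intron and junction reads was not tested.

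**Figure D3:**
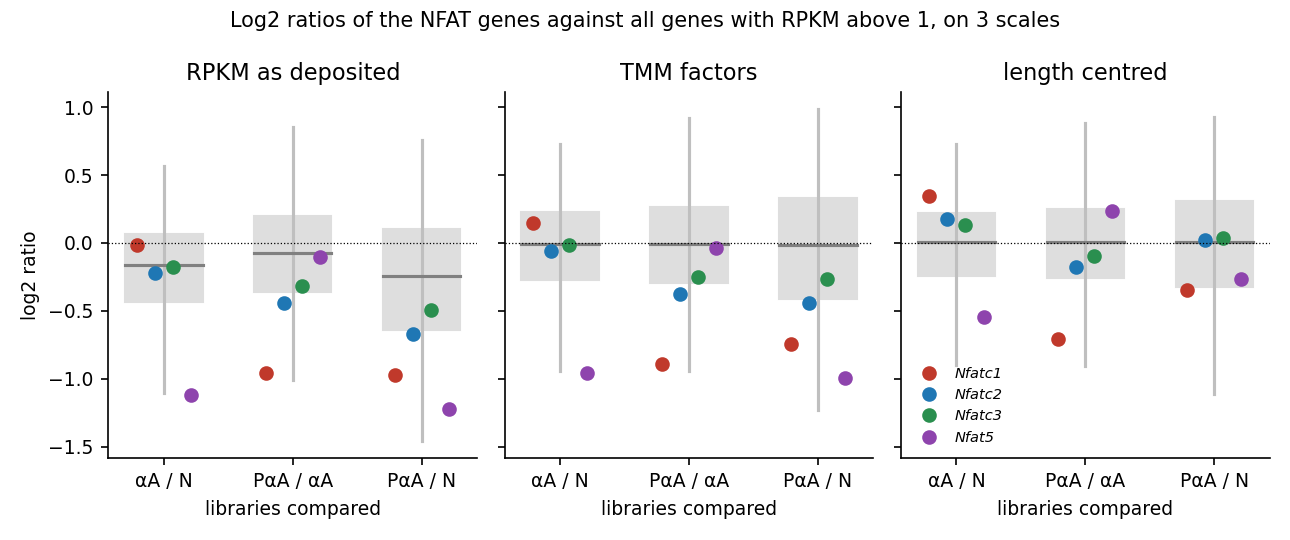
Log2 ratios (vertical axis) of the 4 NFAT genes for αA against N, PαA against αA and PαA against N, on the deposited RPKM scale, with TMM factors and after centring on genes of like exon length. Grey boxes run from the 25th to the 75th percentile of the genes above 1 RPKM and hold their median, and grey lines run from the 5th to the 95th. After length centring *Nfatc2* and *Nfatc3* lie at 0.02 and 0.04 for PαA against N and turn to 0.18 and 0.13 for αA against N, while *Nfatc1* stays at -0.71 for PαA against αA.

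**Figure D4:**
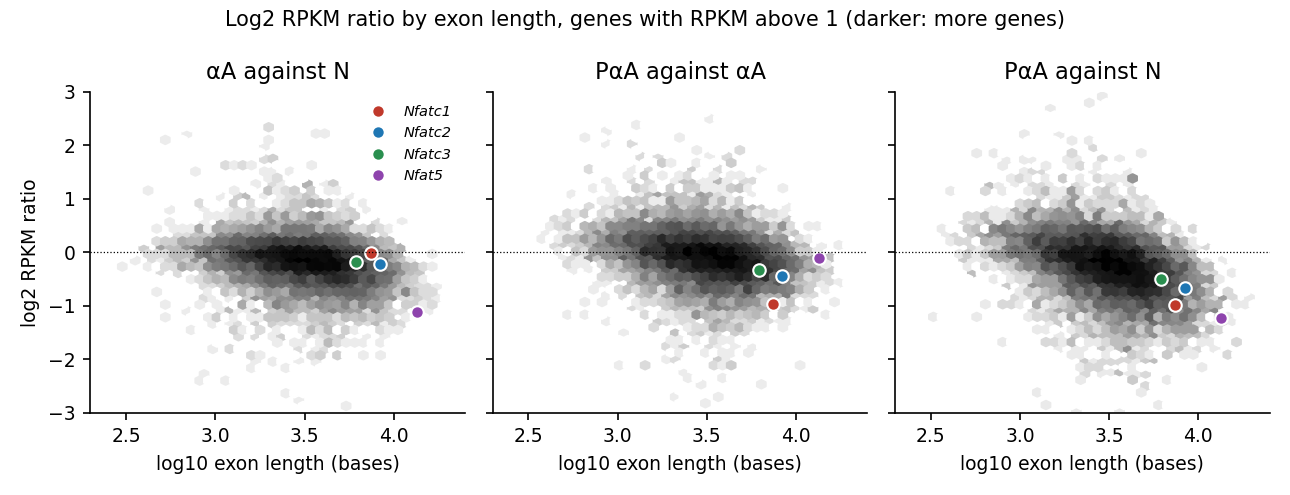
Log2 RPKM ratio (vertical axis, drawn from -3 to 3) against log10 exon length in bases for genes above 1 RPKM, with the 4 NFAT genes as coloured points. Darker cells hold more genes. The cloud declines towards long genes, and the 4 NFAT genes lie in its long end, between 6167 and 13445 bases.

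NFAT proteins bind a short GGAAA core. RefSeq promoter sequence, the 250 bases before the start, is therefore shown for *Nfatc2*, *Nfatc3* and *Nfat5* (for *Nfatc3* the RefSeq start lies 22 bases before that of the deposited annotation), while that of *Nfatc1* is not shown here. The build is GRCm38.p6 and each run is written 5′ to 3′ on the strand of its gene, with GGAAA or its reverse complement TTTCC in capitals. The windows are chr2:168601658-168601907 (minus strand), chr8:106058568-106058817 (plus strand) and chr8:107293220-107293469 (plus strand).
Nfatc2: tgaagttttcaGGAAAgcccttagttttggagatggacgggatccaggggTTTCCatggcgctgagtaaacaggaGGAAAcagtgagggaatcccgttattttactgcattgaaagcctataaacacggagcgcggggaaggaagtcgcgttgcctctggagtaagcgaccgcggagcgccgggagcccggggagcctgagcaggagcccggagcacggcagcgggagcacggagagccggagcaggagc
Nfatc3: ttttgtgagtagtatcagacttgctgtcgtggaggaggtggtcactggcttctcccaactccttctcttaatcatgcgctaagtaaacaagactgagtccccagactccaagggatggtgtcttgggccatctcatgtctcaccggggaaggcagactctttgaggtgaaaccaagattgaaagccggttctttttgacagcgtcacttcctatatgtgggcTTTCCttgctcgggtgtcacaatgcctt
Nfat5: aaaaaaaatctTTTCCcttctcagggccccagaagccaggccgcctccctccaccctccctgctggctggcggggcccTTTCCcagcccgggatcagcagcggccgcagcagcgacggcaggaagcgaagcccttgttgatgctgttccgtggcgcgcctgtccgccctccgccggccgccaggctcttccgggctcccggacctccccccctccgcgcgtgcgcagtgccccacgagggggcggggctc
The core occurred 3 times before *Nfatc2*, 1 time before *Nfatc3* and 2 times before *Nfat5*, on either strand. Of 32851 promoter windows of the same length, 55.6% held it at least 1 time, which is the background for these counts. The letters GAAAG or CTTTC, part of the element to which Blimp-1 binds, occurred 2, 2 and 1 times and stood in 51.5% of all windows. GGAAA and GAAAG can overlap by 4 bases, and where they do the same bases were counted for both. A match of such short words is a description of the sequence and not a binding site.

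Genes whose RPKM pattern over the 3 libraries was most like that of a member were ranked by the distance between centred log2 values, among 5870 genes. Over 3 libraries many genes are close by construction. For *Nfatc1* the nearest were *Mau2*, *AW011738*, *Ptger4*, *Foxo3* and *N4bp1*, and 15 genes lay within a distance of 0.1. *Ptger4*, a receptor for prostaglandin E2, was at 43.4, 44.1 and 22.5 RPKM, and *Foxo3*, a forkhead factor, at 8.90, 8.62 and 4.37 RPKM in N, αA and PαA. For *Nfat5* the nearest included *Tpr*, *Lef1*, *Zfp677* and *Nnt*, and 16 genes lay within 0.1. *Lef1*, a T cell factor of the TCF family, was at 21.5, 9.66 and 8.92 RPKM. The patterns of *Nfatc2* and *Nfatc3* were common ones, with 254 and 374 genes within 0.1. *Nfatc2* was closest to *Flii*, *Hsf1*, *Trim14*, *Il27ra* and *Fnta*, *Nfatc3* to *Trim26*, *Ndrg2*, *Ddx42*, *Xpot* and *Cap1*, and these 2 members were 0.13 apart from each other.

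The genes that act on NFAT proteins were read from lists. Of the 5 genes for calcineurin subunits, 4 had an RPKM above 5, and 1 of these was more than 2-fold lower in αA than in N (background 2.81% of 7017 genes) and in PαA than in N (7.77%), whereas none was in PαA against αA (2.45%). This was *Ppp3ca*, a catalytic subunit, with 13.7, 6.49 and 5.32 RPKM and log2 ratios of -1.08 and -1.36 to N. With TMM factors its ratios were -0.92 and -1.13 and after length centring -0.84 and -0.94, so it passed 2-fold with TMM factors in PαA against N only, and in neither comparison after length centring. *Ppp3cc*, another catalytic subunit, ran opposite, with 12.5, 16.3 and 23.0 RPKM, and was past 2-fold higher in PαA than in N with TMM factors only. *Ppp3cb* was at 21.95, 19.8 and 18.0 RPKM. Of the 3686 reads of the regulatory subunit *Ppp3r1* in PαA, 450 were unique, so its level is uncertain. The median of the 4 was -0.22, -0.01 and -0.23 for αA against N, PαA against αA and PαA against N, beside -0.17, -0.08 and -0.24 over all genes above 1 RPKM. Of the 5 inhibitors and anchors of calcineurin, 3 were above 5 RPKM and 0 passed 2-fold. *Rcan1*, an inhibitor that NFAT itself induces, was at 7.20, 6.77 and 7.15 RPKM. Of 10 kinases that phosphorylate NFAT proteins, 8 were above 5 RPKM and 0 passed 2-fold. Since 4.25%, 4.63% and 10.3% of all genes passed 2-fold either way in the 3 comparisons, so few genes with a count of 0 do not stand apart from the background. Among them *Gsk3a*, a kinase that promotes nuclear export of NFATc proteins, stood at 46.5, 43.5 and 33.05 RPKM, and *Csnk1d*, a casein kinase, at 42.3, 36.2 and 23.6 RPKM. Of 4 transport and retention genes used, *Xpo1*, the nuclear exporter, was at 17.4, 16.5 and 14.8 RPKM and *Kpnb1*, an importin, at 43.4, 36.7 and 31.0 RPKM, and neither passed 2-fold. *Homer3*, a scaffold protein known to bind NFAT, had 43, 36 and 0 exon reads, at most 0.507 RPKM, and the upper counting limits of the log2 ratio of PαA were -3.12 to αA and -3.26 to N.

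Of 15 genes for nuclear partners of NFAT, 12 had an RPKM above 5. None was past 2-fold in αA against N or PαA against αA, and 3 were more than 2-fold lower in PαA than in N, where 7.77% of genes were. These were *Maf* (105.2, 84.5 and 43.3 RPKM, log2 ratio of PαA to N -1.28), *Foxp3* (32.8, 20.9 and 15.3 RPKM, -1.10) and *Ep300*, which encodes the p300 acetyltransferase (9.40, 5.22 and 4.36 RPKM, -1.11). *Batf*, an AP-1 family partner, was at 141.2, 130.8 and 135.5 RPKM, and *Irf4* at 20.5, 17.9 and 12.3 RPKM. The list's median was -0.26, -0.22 and -0.73 in the 3 comparisons, and with TMM factors -0.10, -0.15 and -0.51. Past 2-fold in PαA against N were then 1 (*Maf*, -1.05) with TMM factors and 0 after length centring. The partner list was also put together with earlier results of these data known. Less *Foxp3* RNA in PαA had already been reported by the study.

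Of 22 genes known as calcineurin-NFAT targets in T cells, 18 had an RPKM above 5. More than 2-fold lower were 1 in αA against N (background 2.81%), 4 in PαA against αA (2.45%) and 9 in PαA against N (7.77%). Both counts against N include *Il4*, which was above 5 RPKM in N only. With TMM factors the counts in the same order were 1, 4 and 5, and after length centring 1, 4 and 7. Over all genes above 5 RPKM, 1.82%, 1.97% and 3.89% were more than 2-fold lower with TMM factors and 1.62%, 1.88% and 3.14% after length centring. The 1 gene lower in αA was *Il4* (8.69, 2.54 and 4.15 RPKM, log2 ratio -1.78). It passed the filter only through N, where it was high, so nothing is read from that count of 1. The 4 lower in PαA than in αA were *Ctla4* (147.7, 188.0 and 58.7 RPKM, -1.68), *Tnfrsf9* (140.5, 91.2 and 30.9 RPKM, -1.56), *Egr2* (21.7, 15.5 and 6.11 RPKM, -1.34) and *Nr4a3* (11.4, 6.79 and 2.68 RPKM, -1.34). *Ctla4* encodes an inhibitory receptor, *Tnfrsf9* the receptor 4-1BB, and *Egr2* and *Nr4a3* encode transcription factors induced by antigen receptor signals. Only 504 of the 2139 reads of *Tnfrsf9* in PαA were unique, so its level is uncertain. Against N the 9 lower in PαA were these 4, *Il4* (-1.07) and *Egr3*, *Nr4a1*, *Pdcd1* and *Lag3*, with log2 ratios of -1.08, -1.48, -1.22 and -1.01. Here too *Il4* passed the filter only through N, so its place among the 9 carries no weight. *Pdcd1*, which encodes PD-1, was at 340.8, 205.2 and 146.6 RPKM, and *Lag3*, a further inhibitory receptor, at 330.1, 280.5 and 164.0 RPKM. Below 5 RPKM, the cytokine gene *Csf2* had 23, 4 and 46 reads, with log2 ratios of 3.62 (2.17 to 5.56) for PαA against αA and 1.22 (0.47 to 2.01) against N. *Il2* had 9, 4 and 29 reads, with ratios of 2.96 (1.45 to 4.92) and 1.91 (0.79 to 3.18), so both were higher in PαA, but 2 of the 9 reads of *Il2* in N and 18 of the 29 in PαA were unique and its level is uncertain. Further targets had various orders of the libraries on the RPKM scale. *Ifng* was at 20.5, 18.1 and 24.6 RPKM, *Tnf* at 2.38, 2.53 and 2.80, and *Cxcr5*, the homing receptor of the sort, at 48.3, 81.3 and 47.6. The median of the list was -0.32, -0.49 and -0.74, and with TMM factors -0.15, -0.42 and -0.51. Many of these genes have further regulators, and the list was put together with earlier results of these data known.

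Of 8 genes linked to NFAT5 and tonicity, 5 had an RPKM above 5, and none of these 5 was more than 2-fold lower in any comparison. Over all genes above 5 RPKM, 2.81%, 2.45% and 7.77% were, for αA against N, PαA against αA and PαA against N. A count of 0 among so few genes does not stand apart from these shares. *Sgk1*, a salt-induced kinase, was at 3.96, 3.55 and 9.003 RPKM and is 1 of the 5. It was more than 2-fold higher in PαA than in αA and N (log2 ratios of 1.34 and 1.18). But *Sgk1* passed the filter only through PαA, where it was high, so nothing is read from this call. *Slc6a6*, the taurine transporter, was at 9.36, 8.65 and 8.24 RPKM, and *Slc38a2*, an amino acid transporter, at 12.5, 11.6 and 11.4 RPKM. Below 5 RPKM, *Slc5a3*, the myo-inositol transporter, was at 1.35, 1.965 and 0.561 RPKM, with log2 ratios of -1.81 for PαA against αA and -1.27 for PαA against N. Of its 438, 584 and 156 reads, 2, 3 and 0 were unique, so its level is uncertain. Between N and αA, where *Nfat5* differed by -1.12, the members of the list were spread on both sides of 0, with log2 ratios of -0.86 for the heat shock gene *Hspa1b* (398 of 1261 reads in N unique, so its level is uncertain), -0.29 for *Hspa4l*, -0.16 for *Sgk1*, -0.11 for both *Slc6a6* and *Slc38a2*, 0.09 for *Akr1b3* and 0.54 for *Slc5a3*. *Akr1b3*, aldose reductase, was at 127.8, 136.0 and 153.9 RPKM, but 870 of its 5706 reads in PαA were unique.

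**Figure D5:**
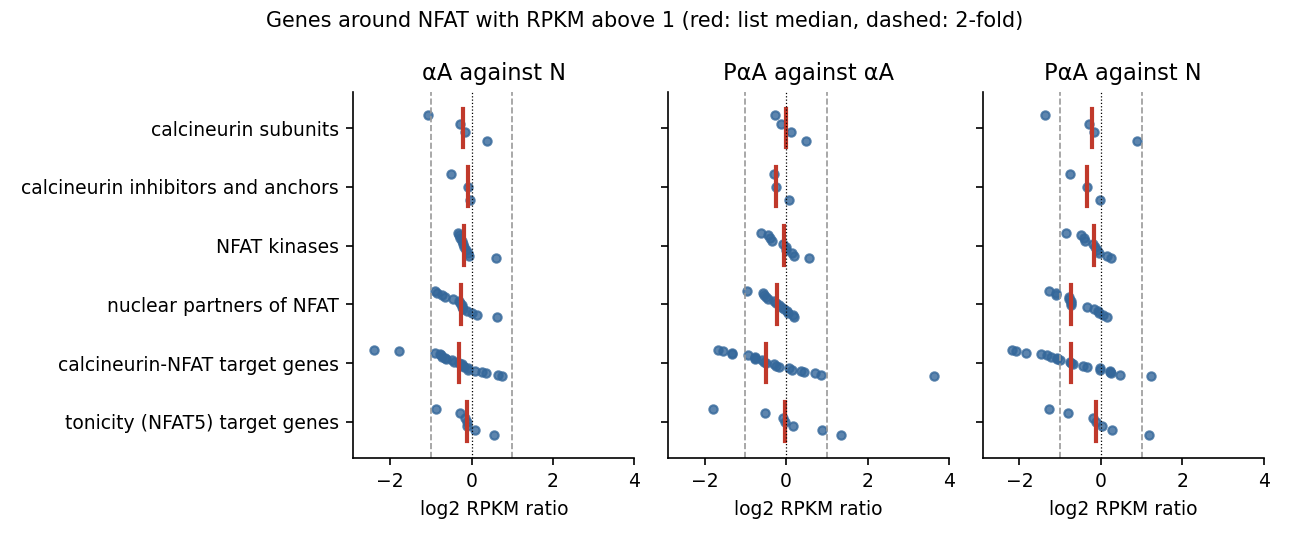
Log2 RPKM ratios (horizontal axis) of genes above 1 RPKM that act on NFAT or are known as its targets, for αA against N, PαA against αA and PαA against N. Points are genes, red bars list medians and dashed lines mark 2-fold. The kinases stay inside the lines. The lowest list medians are those of the target genes (-0.74) and the nuclear partners (-0.73) in PαA against N.

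The sort markers and those of other cells bear on all of the above. Summed over 10 of 11 markers of CD4 T cells and Tregs used, the libraries had 2621, 2860 and 2035 RPKM in N, αA and PαA, led by *Cd3g*, and none of the 10 was at 0. In αA against N, 5 of the 10 were lower and 5 higher. In PαA against N 4 of the 10 were lower by more than 2-fold (background 7.77%). These were *Foxp3*, *Ctla4*, *Tnfrsf18* (which encodes GITR) and *Prdm1*, with log2 ratios of -1.10, -1.33, -1.07 and -1.36. Cre acts on *Prdm1* itself in PαA, so its place among the 4 carries no weight. This list, too, was put together with earlier results of these data known. With TMM factors 2 of the 10 were more than 2-fold lower (*Ctla4* and *Prdm1*, background 3.89%). After length centring 2 were (*Ctla4* and *Tnfrsf18*, background 3.14%). On these scales *Foxp3* was at -0.87 and -0.77. *Cxcr5* was at -0.02 by RPKM and 0.21 with TMM factors. Markers of plasma cells summed to 49.2, 67.1 and 107.7 RPKM, mostly *Jchain*, and *Tnfrsf17* had 0 reads in PαA. The sum was highest in PαA, where *Nfatc1*, *Nfatc2* and *Nfatc3* were lowest on the RPKM scale. *Jchain* was at 44.3, 58.4 and 94.8 RPKM and *Sdc1* at 0.744, 1.03 and 5.97 RPKM, with log2 ratios of PαA to N of 1.10 and 3.005. Myeloid markers, 4 of 5 used, summed to 247.8, 145.1 and 213.6 RPKM, mostly *Lyz2*. Within this list *S100a8* (12.8, 0.831 and 11.9 RPKM) and *S100a9* (15.1, 0 and 11.5 RPKM) were lowest in αA, whereas *Csf1r* was highest there (6.25, 10.6 and 6.62 RPKM). B cell markers stood at 16.0, 12.8 and 14.5 RPKM, led by *Cd79b*. *Cd79a* was higher in PαA than in N (80, 65 and 147 reads, log2 ratio 1.10), and *Cd79b* and *Ms4a1* were lower (-0.40 and -0.74). CD8 T cell markers stood at 9.27, 14.1 and 8.14 RPKM, led by *Cd8b1* in N. The 2 CD8 genes went opposite ways in PαA: *Cd8a* had 18, 179 and 231 reads (log2 ratio of PαA to N 3.90, of αA to N 3.44), and *Cd8b1* 400, 486 and 198 (-0.79 and 0.41). In such bulk samples fewer cells of a type and less RNA per cell cannot be told apart, and the part of other cells in the NFAT levels was not tested. Genotype and library are one and the same in this set, so that a difference between genotypes and one between single preparations cannot be told apart.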

How the data were processed

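TFR cells of 3 genotypes gave 1 poly(A) RNA-seq library each. The authors trimmed the single reads and used CLC Genomics Workbench at default settings for alignment to GRCm38 and counting. They deposited counts per gene of exon reads (total and unique), junction reads and intron reads, not normalized, and RPKM and TPM values written with decimal commas, other units than counts. RPKM equals exon reads by exon length and library total, and the totals were recovered from it. The 3715 genes of exon length 0 were not used.

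Ratios are log2 ratios of RPKM (for junction and intron reads, of reads by library total) with exact Clopper-Pearson 95% intervals for counting error. With 1 library a group there is no test. The study's filter was read as an RPKM above 5 in at least 1 library and a ratio above 2-fold. Members and lists were chosen with earlier results of these data known. Genes named are the members, *Nfatc4*, genes of the lists, *Prdm1*, markers, and for each member the 5 nearest in pattern (RPKM above 5, at least 100 exon reads and 80% unique reads in each library). A gene that this rule names is not reported here. Alternatives were TPM, TMM factors (edgeR 4.0.16, R 4.3.3), a pseudocount of 1, unique reads, other filters and, chosen after seeing the data, a 1.5-fold rule and length centring (lowess, fraction 0.3). Other steps used Python 3.11.15, pandas 2.3.3, scipy 1.17.1 and statsmodels 0.14.6. Intervals were tested on simulated data. Overlapping genes came from GENCODE (GRCm38).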

Additional observations from a re-analysis of the deposited data

How the results depend on the processing

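Ratios are given in the order αA against N, PαA against αA and PαA against N where all moved by more than their counting interval. With TMM factors they were 0.15, -0.89 and -0.75 for *Nfatc1*. *Nfatc2* had -0.062 (αA against N) and -0.44 (PαA against N), *Nfatc3* -0.014, -0.25 and -0.27, and *Nfat5* -0.96 (αA against N) and -0.996 (PαA against N). The summed RPKM became 113.3, 117.0 and 78.3 for N, αA and PαA, so that αA no longer stood below N. With TPM, PαA against αA and PαA against N gave -1.12 and -1.17 for *Nfatc1*, -0.61 and -0.87 for *Nfatc2* and -0.48 and -0.69 for *Nfatc3*, and PαA against N gave -1.42 for *Nfat5*. TPM and TMM thus moved the ratios in opposite directions. Length centring gave 0.35, -0.71 and -0.35 for *Nfatc1*, -0.54, 0.23 and -0.27 for *Nfat5*, and -0.18 for *Nfatc2* and -0.10 for *Nfatc3* in PαA against αA. It turned the direction of *Nfatc2* (0.18 and 0.025) and *Nfatc3* (0.13 and 0.036) against N, for αA and PαA in turn, since the ratio of genes of like length is subtracted. A pseudocount of 1 brought *Nfat5* to -0.78 for αA and -0.85 for PαA against N. Unique reads moved none of the 18 values.

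Genes past 2-fold numbered 978, 1016 and 1715 above 1 RPKM, and 2172, 1953 and 2647 with no filter on RPKM, against 298, 325 and 725 above 5 RPKM. A pseudocount of 1 gave 194 and 215 in the first pair of comparisons, and the 1.5-fold lower rule above 1 RPKM 1774, 1446 and 2908. No paired analysis was possible because each genotype has 1 library, and leaving out a library removes every comparison that uses it. Junction reads of *Nfat5* and all reads of *Nfatc4* are too few for more than a rough ratio.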
